A study of Rattus norvegicus with 6 samples.

Results

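Lower villus nuclei were picked out of single-nucleus RNA profiles of the rat ileum as nuclei that held UMIs (unique molecular identifiers, each counting 1 captured RNA molecule) of at least 3 of 8 genes, Pla2g4c, Cyp4f40, Serhl2, Hnmt, Vstm5, Gsta3, Ces2j and Bche. They also had to hold fewer than 3 of the mid-villus genes Si, Slc5a12, Slc2a2, Ldb3, Btnl5, Ceacam20, Frmd1 and Enpep, and fewer than 3 of the villus tip genes Apoa4, Ada, Ly6m, Slc28a2, Gprc5a, Samd9, Cyp3a9 and Rnf24. Because the members were chosen by these measured counts, the levels of the 24 genes are given as a description only. The rule kept 662 of 40970 nuclei that passed quality control (1.62%), out of 90461 barcodes. The nuclei came from male Sprague-Dawley rats, 6 weeks old, with 1 library per rat. In the 3 SAP rats, severe acute pancreatitis was induced by infusing 3% sodium taurocholate (0.1 mL per 100 g body weight) into the pancreatic duct, and the 3 CON rats had a sham laparotomy with no infusion. All rats were fasted after surgery, with free access to water, and the ileum was taken 24 h later, so both groups share a laparotomy and the fasting, while puncture and clamping of the duct are described for SAP rats only. Passing nuclei numbered 9246, 6260 and 8414 in CON 1, 2 and 3, and 3189, 5968 and 7893 in SAP 1, 2 and 3.

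Enterocytes, the absorptive cells of the small intestine, are made by dividing cells in the crypts and move up the villus until they are shed at its tip. On the way they lose the genes of stem cells and cell division and gain those of the brush border, the membrane that carries digestive enzymes and nutrient transporters. Cells at the villus base are known for detoxifying and defence genes, cells of the middle for amino acid and sugar transport, and cells of the tip for lipid export and purine metabolism. The 8 genes of the rule include several enzymes of that detoxifying kind: Gsta3 is a glutathione S-transferase, Cyp4f40 a cytochrome P450, Ces2j a carboxylesterase, Bche butyrylcholinesterase and Hnmt the enzyme that methylates histamine, while Pla2g4c is a phospholipase A2.

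Membership rested on few molecules. Exactly 3 of the 8 genes were held by 504 members (76.1%) and 4 or more by 158, and 2117 nuclei just below the limit held 2. Hnmt was held by 50.0 to 80.2% of members in the 6 libraries, and in SAP 2 Ces2j (72.2%) and Serhl2 (55.6%) were held by more. The level of Hnmt in the summed UMIs of the members was 171, 336 and 433 CPM (UMIs of the gene per 1000000 UMIs of the class in that library) in CON 1, 2 and 3, and 422, 287 and 212 CPM in SAP 1, 2 and 3. The values of the CON and SAP libraries overlapped. In mid-villus nuclei (at least 3 mid-villus genes, fewer than 3 of the other enterocyte lists) Hnmt averaged 71.5 CPM, and in crypt nuclei (at least 3 of Olfm4, Lgr5, Ascl2, Slc12a2, Smoc2, Rgmb, Ephb3 and Axin2, and fewer than 3 of each enterocyte list) 51.0 CPM. The largest ratio to mid-villus nuclei among the 8 was that of Gsta3, at a mean of 147 CPM in members and 9.79 in mid-villus nuclei. Against crypt nuclei the ratio of Ces2j (183 and 11.5 CPM) was above that of Gsta3 (147 and 10.3 CPM). Pla2g4c averaged 155 CPM in members, Serhl2 157, Vstm5 149, Ces2j 183, Bche 154 and Cyp4f40 102, and in mid-villus nuclei these 6 lay between 19.5 and 58.0 CPM. For all 8 genes the contrast is what the rule selected.

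**Figure D1:**
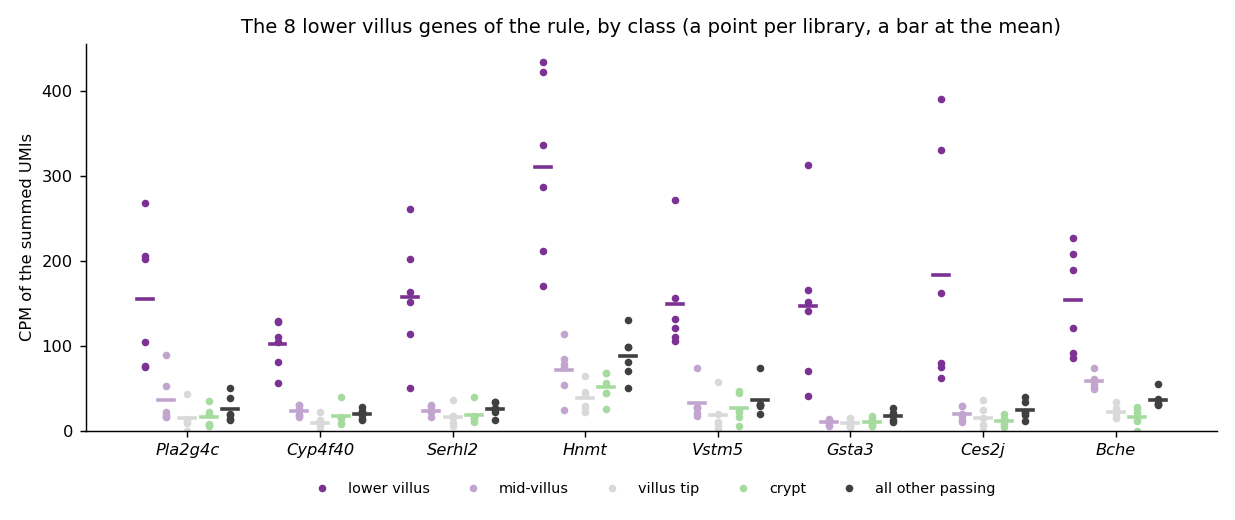
CPM of the 8 lower villus genes of the rule (y axis) in the summed UMIs of each class of nuclei; a point is 1 of the 6 libraries and the short bar their mean. Lower villus nuclei stand above the other classes by the choice of members, with Hnmt at 171 to 433 CPM against a mean of 71.5 CPM in mid-villus nuclei.

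Of the mid-villus genes, Enpep, the aminopeptidase A of the brush border, was well above the others in members, at 234, 615 and 529 CPM in CON and 588, 1016 and 164 CPM in SAP. It was held by 52.3 to 72.0% of members, so most carried 1 of the genes that they were limited in. Enpep was not particular to members: its mean was 524 CPM in them and 523 CPM in all other passing nuclei. It was held by 32.1 to 61.6% of those other nuclei and by 30.3 to 45.3% of crypt nuclei. Si, sucrase-isomaltase, averaged 90.0 CPM in members and 626 in mid-villus nuclei. Slc5a12, a lactate transporter, averaged 18.9 against 529 CPM and Ldb3 33.2 against 391 CPM. Btnl5 and Ceacam20 were at 14.9 to 391 CPM and 18.0 to 56.6 CPM over the libraries. Slc2a2, the basolateral glucose transporter, gave 1 UMI in all members and Frmd1 gave 4. Of the tip genes, Slc28a2, a nucleoside transporter, was highest at 18.4 to 156 CPM, followed by Apoa4, an apolipoprotein of lipid export, at 0 to 130 CPM. Cyp3a9 reached at most 78.2 CPM, and Ada, Ly6m, Gprc5a, Samd9 and Rnf24 at most 26.1 CPM each, which is 1 UMI in the smallest library.

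The members are next described by genes that the rule did not use. Among nuclei within both upper limits, those holding 0, 1, 2 and at least 3 of the 8 genes numbered 19032, 7243, 2117 and 662, with median depths of 1602, 1757, 1945 and 2436.5 UMIs. Over these steps, levels (mean CPM of the 6 libraries) of some enterocyte regulators and metabolic genes were higher the more rule genes a nucleus held. Cmahp was at 189.6, 258, 342 and 502 CPM. Nr1h4, the bile acid receptor FXR, was at 250.1, 329, 396 and 469 CPM, and Nr5a2, a nuclear receptor of the gut epithelium, at 344, 449, 549.6 and 656 CPM. Krt19, an epithelial keratin, was at 159, 189, 223 and 374 CPM, and the microsomal glutathione transferase Mgst1 at 150.1, 184, 206 and 346 CPM. For each of these 5 genes, members lay above nuclei holding none in 6 of 6 libraries. The 5 were picked with these data known, and Cmahp and Nr1h4 are also among the genes highest against crypt nuclei below. Nuclei holding none include shallower nuclei and nuclei of the crypt, immune and stromal lists. The steps are therefore no separate support for the label, and the share of all genes that rise this way was not counted. Other regulators and metabolic genes went down over the steps, such as Klf4 (124 to 46.7 CPM) and Apob (350.1 to 197 CPM). For both, members lay above nuclei holding none in 0 of 6 libraries. A list of 14 defence genes of the lower villus, none of them in the rule and Reg3g the most abundant, went against the name: it summed to 26044 CPM in members, 30147 CPM in mid-villus, 37770 CPM in tip and 13143 CPM in crypt nuclei. Members lay above mid-villus and tip nuclei in 1 of 6 libraries each and above crypt nuclei in 6 of 6.

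Crypt genes ran the other way. Olfm4, a marker of intestinal stem cells, was at 309, 241, 174 and 128 CPM over the same steps, and Lgr5, the receptor that marks cycling stem cells, at 88.6, 66.3, 46.9 and 36.0 CPM. Slc12a2, Smoc2, Rgmb, Ephb3 and Axin2 behaved alike, with members below nuclei holding none in 6 of 6 libraries for all 7 genes. The exception on the crypt list was Ascl2, at 1.26 to 4.01 CPM with no order. Brush border and transport genes had no common direction. Anpep, aminopeptidase N, was at 188, 173, 144 and 90.9 CPM, and Slc15a1, the peptide transporter, at 211, 164, 149 and 116 CPM, with members lower in 6 and 5 of 6 libraries. Vil1, the actin bundler villin, was at 387, 424, 435 and 461 CPM, and members were higher in 6 of 6 libraries for Vil1, Slc26a3, Slc13a2 and Plb1. The smooth muscle gene Myh11 was at 253, 179, 136 and 87.1 CPM. The division gene Top2a was at 132, 140, 132 and 156 CPM, higher in members than in nuclei holding none in 5 of 6 libraries. Arhgap19 and Kif4a, further division genes, were at 46.5 and 66.4 CPM in nuclei holding none and at 75.5 and 89.9 CPM in members, which were higher in 6 of 6 libraries.

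**Figure D2:**
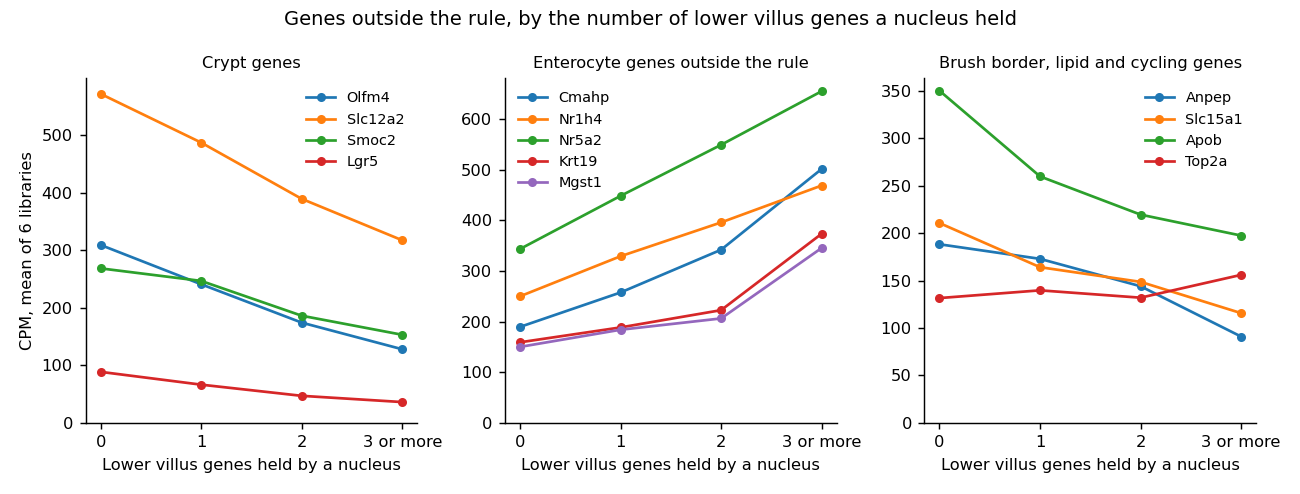
Mean CPM over 6 libraries (y axis) of genes outside the lower villus list in nuclei holding 0, 1, 2 or at least 3 of the 8 lower villus genes (x axis), among nuclei within both upper limits. The crypt gene Olfm4 is lower at each step (309 to 128 CPM), and Cmahp is higher (189.6 to 502 CPM). Enterocyte genes had no common direction.

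Members were not a pure class. Of the 662, 105 also held at least 3 genes of a T cell, B cell, macrophage, neutrophil, smooth muscle, fibroblast or endothelial list: 34, 5 and 31 in CON and 2, 0 and 33 in SAP. These nuclei were deep, giving 47.1, 4.48 and 16.5% of the members' UMIs in CON and 20.1, 0 and 52.9% in SAP. The rule met nuclei of those lists at rates of 2.78, 1.39 and 2.14% in CON and 0.966, 0 and 1.25% in SAP, against 1.25, 1.97 and 3.19% and 0.771, 0.318 and 1.49% in the other passing nuclei. At least 3 genes of a general epithelial list were held by 98.8 to 100% of members per library, so nearly all of these nuclei held epithelial RNA too, as did 87.7 to 99.6% of all passing nuclei. With every nucleus thinned to 1200 UMIs, the rates in nuclei of those lists were 0.0818, 0.836 and 0.553% in CON and 0, 0.66 and 0.113% in SAP, against 0.324, 0.576 and 1.13% and 0.369, 0.282 and 0.438% in the others. The T cell list summed to 312.7 to 609 CPM in members, with Bcl11b the most abundant gene (mean 283 CPM), and the B cell list to 0 to 471 CPM, with Ebf1 the most abundant. The Paneth list (7 of its 8 genes found in members, Defa5 at 0, Defa8 the most abundant) summed to 44960 CPM in CON 1 and 72067 CPM in SAP 1, against 1429 to 6958 CPM in the other 4 libraries. CON 1 and SAP 1 therefore stood apart, and counts without both are given with the results. The goblet list, led by Fcgbp, summed to 17589 CPM in CON 1 and 2775 to 7551 CPM in the other libraries. Whether such RNA came from doublets or from free RNA in the droplets was not tested. The members are thus a set of nuclei with epithelial RNA, some of which also held RNA of immune or stromal lists, and position on the villus was not measured. The name lower villus nuclei is used for the rule's members in this sense.

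In members, the mean sums of the amino acid, sugar, lipid, bile acid and cell division lists lay between those of crypt and mid-villus nuclei. Other lists did not, among them the conjugating enzymes, whose mean sum was higher in members than in both. Counted here are genes outside the lists that set the classes with a mean of at least 20 CPM in either class, and classes were formed on measured counts of the same nuclei, so the levels are described with no test. Of 23 genes for amino acid and peptide uptake, 22 reached that level, and 17 were lower in members than in mid-villus nuclei in 6 of 6 libraries, against 8.63% of all 8443 genes, while 0 were higher, against 11% of all genes. Their median log2 ratio of mean CPM to mid-villus nuclei was -1.43, beside 0.15 over all genes. Slc6a19, the main transporter of neutral amino acids, was at 7.70, 15.1 and 32.8 CPM in members of CON and 36.7, 78.2 and 9.92 CPM in members of SAP, against a mean of 212 CPM in mid-villus nuclei. Anpep was at 25.7, 45.3 and 120.3 CPM in CON and 55.1, 235 and 64.5 CPM in SAP, against 686 CPM. The lowest library of mid-villus nuclei, at 556 CPM, lay above the highest library of members.

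Bile acid and vitamin B12 genes were lower in members in 6 of 6 libraries for 6 of 10 genes, sugar genes for 6 of 8 and lipid genes for 11 of 24, with median log2 ratios to mid-villus nuclei of -1.27, -1.03 and -0.81. Apob, the scaffold of chylomicrons, was at 28.2, 37.8 and 127 CPM in members of CON and 257, 651 and 82.7 CPM in members of SAP, against a mean of 549 CPM in mid-villus nuclei. Amn, part of the vitamin B12 receptor, averaged 25.1 against 146 CPM. Clec2h and Clec2e, C-type lectins, averaged 245 and 66.3 CPM against 1254 and 485 CPM. Other genes with low ratios to mid-villus nuclei were Slc25a48, Sgk1, Dnase1 and LOC120098896.

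Genes of cell division were higher in members than in mid-villus nuclei. The 16 genes of the cycling list summed to 862 CPM in members, 1019.5 CPM in crypt nuclei and 393 CPM in mid-villus nuclei, and the sum was higher in members than in mid-villus nuclei in 6 of 6 libraries. Of 11 cycling genes at 20 CPM, 5 were higher in members in 6 of 6 libraries and 0 were lower. Top2a, topoisomerase 2 alpha, was at 192, 249 and 145 CPM in members of CON and 110.2, 52.1 and 187 CPM in members of SAP, against 80.7, 88.1 and 62.1 CPM and 23.9, 17.3 and 74.5 CPM in mid-villus nuclei of the same rats. Of the 12 genes with the highest ratio to mid-villus nuclei, 10 were genes of mitosis or cytokinesis or of chromosome handling, namely Troap, Racgap1, Plk1, Ankle1, Kif4a, Top2a, Tpx2, Ect2, Arhgap19 and Kif23, with log2 ratios of 1.62 to 2.07 (for single genes, of CPM pooled over the 6 libraries). With libraries weighted equally the ratios of these 10 were 1.04 (Ect2) to 1.79 (Troap). In SAP 2, 1 UMI is 26.1 CPM, and the values of Troap, Racgap1, Plk1, Ankle1, Kif4a and Tpx2 there rest on 1 UMI each. The other 2 were Dmbt1, a secreted defence glycoprotein, and Cmahp. Dmbt1 averaged 2220 CPM in members and 856 CPM in mid-villus nuclei. In all, 713 of 5247 genes at 50 CPM (13.6%) were higher in members in 6 of 6 libraries and 553 (10.5%) were lower.

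Conjugating enzymes were highest in members among the enterocyte classes. The 36 genes of the phase 2 list outside the rule (glutathione, sulfo- and glucuronosyltransferases) summed to 1686 CPM in members, 1282 CPM in mid-villus, 842 CPM in villus tip and 1072 CPM in crypt nuclei, and members were the highest of each pair in 6 of 6 libraries. Mgst1 was the most abundant of them. Against villus tip nuclei, 8 of 15 phase 2 genes were higher in members in 6 of 6 libraries and 1 was lower, against 21.3% and 9.75% of all 8540 genes. Counted by gene, 3 of 13 were higher than in mid-villus nuclei in 6 of 6 libraries and 0 were lower. The phase 1 list (cytochrome P450s, carboxylesterases and related enzymes) outside the rule did not share this: members lay above mid-villus nuclei in 1 of 6 libraries and above crypt nuclei in 6 of 6.

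Against crypt nuclei, the summed absorptive lists were higher in members. Of 21 amino acid and peptide genes, 6 were higher in 6 of 6 libraries and 1 was lower, and of 16 phase 1 genes 6 and 0, against 10.1% and 9.14% of all 8728 genes. The median log2 ratio to crypt nuclei was only 0.05 for amino acid and peptide genes, beside -0.01 over all genes. For sugar, lipid and bile acid genes it was 0.73, 0.40 and 0.76. The sums of the lists for amino acids, sugars, lipids and bile acids all lay above crypt nuclei in 6 of 6 libraries, as did that of the 40 enterocyte transcription factors. Of the 12 genes with the highest ratio, Slc26a3, the chloride and bicarbonate exchanger, was at 219, 279 and 282 CPM in members of CON and 441, 704 and 235 CPM in members of SAP, against a mean of 126 CPM in crypt nuclei. Slc13a2, a citrate transporter, averaged 401 against 171 CPM, Sult2b1, a sterol sulfotransferase, 259 against 88.2 CPM, and Nr1h4 469 against 179 CPM. Cdkn2b, an inhibitor of cell cycle kinases, averaged 121 against 46.8 CPM. Cmahp, Coro2a, Rnf152, Ces2, Plb1, LOC120101644 and LOC108350962 made up the 12. In CPM pooled over the libraries, the low end was held by the Paneth cell genes Defal1, Defa8, Defa6, Defa9 and Mmp7 (log2 ratios of -2.22 to -2.03), then by Muc4, Hgfac, Gfra4, Piezo1, Pdlim3, Plg and the crypt transcription factor Sox9 (-1.60). CON 1 had the highest Defal1 in crypt nuclei, at 67208 CPM. With libraries weighted equally the 5 Paneth genes were at -1.14 to -0.86. All the other genes of this low end then lay below them, from Pdlim3 (-2.31) and Gfra4 (-2.07) to Sox9 (-1.30). Of 5134 genes at 50 CPM, 738 (14.4%) were higher than in crypt nuclei in 6 of 6 libraries and 457 (8.9%) were lower.

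The upper limit on mid-villus genes left out many nuclei. Of 1514 nuclei holding at least 3 lower villus genes, 852 (56.3%) were left out because they held at least 3 mid-villus or tip genes, 841 of them mid-villus genes. Members holding 0, 1 and 2 mid-villus genes numbered 132, 284 and 246, and 677 nuclei within the tip limit held at least 3, with median depths of 2085.5, 2418.5, 2808.5 and 4650 UMIs. Over these steps Anpep was at 48.6, 86.6, 98.9 and 392 CPM, Vil1, the actin bundler of the microvillus, at 352, 455, 528 and 725 CPM, and Cmahp at 647, 474, 473 and 266 CPM. Top2a was at 155, 172, 154 and 64.9 CPM, lower only beyond the limit. SAP 2 had no member with 0 mid-villus genes, and the first of these means is over 5 libraries.

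The first comparison asked how much of the tissue these nuclei made up. Lower villus nuclei were 1.45, 1.93 and 3.01% of passing nuclei in CON (134, 121 and 253 nuclei) and 0.784, 0.302 and 1.41% in SAP (25, 18 and 111 nuclei). The mean was 2.13% ± 0.797 (SD, n = 3) in CON and 0.831% ± 0.554 (SD, n = 3) in SAP, and the groups did not overlap. The difference did not pass the test, with an adjusted p of 0.162 over 6 classes of nuclei (lower villus, lower and mid-villus, mid-villus, tip, crypt and other, limma on logit shares), and an exact two-sided permutation test gave p = 0.1, the smallest that 3 against 3 allows. As a share of nuclei holding at least 3 genes of any enterocyte list, members were 9.79, 18.5 and 9.36% in CON and 2.37, 0.373 and 5.63% in SAP (exact permutation p = 0.1). In such counts, fewer cells of a type and less RNA per cell cannot be told apart.

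This difference depended on the upper limit. When nuclei were taken for holding at least 3 lower villus genes alone, their share was 3.67% ± 1.90 (SD, n = 3) in CON and 3.34% ± 1.98 (SD, n = 3) in SAP (exact permutation p = 0.8). The limit removed 48.5, 18.2 and 48.6% of such nuclei in CON and 49.0, 94.5 and 53.6% in SAP, so that SAP 2 lost 308 of 326. With every nucleus thinned to 1200 UMIs, members were 0.639% ± 0.373 in CON and 0.325% ± 0.0220 in SAP (SD, n = 3 each), and the groups came to overlap. They also overlapped with at least 2 or at least 4 genes required, without Pla2g4c, Gsta3 or Bche in the rule, and without nuclei that held an immune or stromal list (exact permutation p = 0.2 for each).

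**Figure D3:**
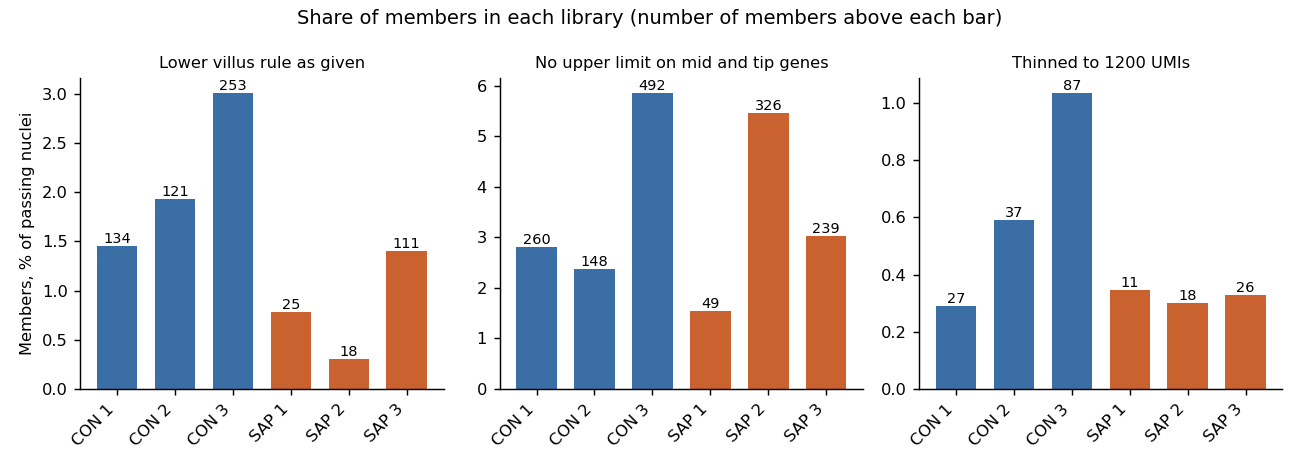
Share of lower villus nuclei among passing nuclei (y axis, percent) in each library, with the number of members above each bar, under the rule as given, without the upper limit on mid-villus and tip genes, and after thinning to 1200 UMIs per nucleus. Under the rule as given all SAP libraries lie below all CON libraries, and without the upper limit SAP 2 has 326 such nuclei instead of 18.

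The depth of members overlapped between the groups. The median UMIs per member were 3286.5, 1938 and 2373 in CON and 1849, 2094.5 and 2948 in SAP (exact permutation p = 0.6). The median genes per member were 2077, 1406 and 1686 in CON and 1192, 1438 and 2083 in SAP (exact permutation p = 0.8). Mitochondrial UMIs made up a median of 0.584, 0.117 and 0.195% per member in CON and of 1.42, 1.42 and 0.286% in SAP (exact permutation p = 0.2). The UMIs summed over members were 779390, 264856 and 731307 in CON but 54449, 38374 and 604566 in SAP, so that 1 UMI is worth 18.4 CPM in SAP 1 and 26.1 CPM in SAP 2, and a gene at 0 there could be as high as 55.1 and 78.2 CPM (3 UMIs, counting error only).

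Expression in members was then compared between SAP and CON, with the UMIs of members summed per rat. St8sia6, a sialyltransferase of the family that adds sialic acid to glycoproteins and glycolipids, was the 1 gene of 7816 tested that passed (0.0128% of genes). It gave 208, 97 and 374 UMIs in CON and 0, 0 and 9 UMIs in SAP, or 325, 380 and 532 CPM against 0, 0 and 15.0 CPM (scaled by TMM factors, as are the values that follow). The groups did not overlap, and the log2 fold change was -5.04 ± 0.50 (SE) (edgeR adjusted p = 0.000136). St8sia6 was called under each of the other 28 settings tried, and its log2 fold change without any single library was -10.11 to -4.79. The gene was also low in SAP in the other classes. In mid-villus nuclei it gave 1490, 475 and 1945 UMIs in CON and 13, 9 and 35 UMIs in SAP, and in crypt nuclei 1243, 677 and 605 against 2, 0 and 36 UMIs, with log2 fold changes of -6.21 and -4.66 (edgeR adjusted p = 0.262 and 0.0573). In all other passing nuclei it averaged 263 CPM in CON and 9.37 CPM in SAP (unscaled). The gene was thus low in every class of every SAP rat, and with 3 rats a group a difference between the animals themselves and an effect of SAP cannot be told apart. The number of genes at an unadjusted p under 0.05 was 355, or 4.54% of those tested. The count of genes called rested on single libraries, at 122 without CON 1 and 6 without SAP 3, and was 2 without CON 1 and SAP 1 together.

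No other gene passed, and the named genes of the next paragraphs were taken because their groups did not overlap or because they belong to a list. Groups without overlap were seen for 289 genes higher in SAP (3.7%) and 718 lower in SAP (9.19%). With SAP 1 and SAP 2 so shallow, genes of moderate level can be at 0 or 1 UMI there. The gene next in line was Reg4, a secreted lectin of secretory and regenerating epithelium, at 9.38, 0 and 9.95 CPM in CON and 64.1, 25.6 and 129.8 CPM in SAP (log2 fold change 3.57 ± 0.62 SE, edgeR adjusted p = 0.0984). The SAP 1 and SAP 2 values rest on 3 and 1 UMIs. Egr1, an immediate early transcription factor, was at 4.69, 15.7 and 9.95 CPM in CON and 107, 25.6 and 79.9 CPM in SAP (log2 fold change 3.03, edgeR adjusted p = 0.2). Junb, another immediate early gene, was at 39.1, 35.2 and 73.9 CPM in CON and 128, 154 and 155 CPM in SAP, with no overlap.

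The other genes named as higher in SAP did not pass either. Slc39a4, the zinc importer of enterocytes, was at 93.8, 35.2 and 75.3 CPM in CON and 299, 359 and 158 CPM in SAP (log2 fold change 1.77 ± 0.42 SE, edgeR adjusted p = 0.444). Acacb, an acetyl-CoA carboxylase that restrains fatty acid oxidation, was at 18.8, 19.6 and 9.95 CPM in CON and 64.1, 76.8 and 73.2 CPM in SAP. Cyp2j3, a cytochrome P450, was at 17.2 to 32.7 CPM in CON and 76.8 to 96.5 CPM in SAP. RT1-Db1, an MHC class II beta chain, was at 67.2, 62.6 and 73.9 CPM in CON and 427, 410 and 113 CPM in SAP. Lcn2, the iron-scavenging defence protein lipocalin 2, was at 0, 0 and 4.26 CPM in CON and 42.7, 51.2 and 23.3 CPM in SAP. LOC120095958 and LOC688542 completed this set with the mitochondrial genes ND2 and ND4L, which stand beside the higher mitochondrial share of members in SAP 1 and SAP 2 given above.

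The genes named beside St8sia6 as lower in SAP did not pass the test. Duox2, the oxidase that makes hydrogen peroxide at the epithelial surface, was at 241, 317 and 191 CPM in CON and 42.7, 0 and 89.9 CPM in SAP (log2 fold change -1.87 ± 0.44 SE, edgeR adjusted p = 0.444). Leaving out 1 library took the log2 fold change of Duox2 to between -3.34 and -1.65. Its maturation factor Duoxa2 was at 76.6, 70.4 and 28.4 CPM in CON and 0, 0 and 25.0 CPM in SAP. Slc5a8, a sodium-coupled transporter of short fatty acids, was at 213, 184 and 183 CPM in CON and 0, 51.2 and 76.5 CPM in SAP. Samhd1, a dNTP hydrolase, was at 61.0, 93.9 and 66.8 CPM in CON and 21.4, 0 and 8.32 CPM in SAP. Cd47, the surface signal against phagocytosis, was at 320.5, 427 and 323 CPM in CON and 149.6, 154 and 180 CPM in SAP. Fam117b, Etfbkmt, Cbr1l2, Sorbs2, Dpf3, Ndrg3 and LOC108352538 made up the 12 lower genes (Duoxa2 is named from a list and not among them), with log2 fold changes of -4.37 to -1.33 and edgeR adjusted p of 0.43 to 0.638.

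**Figure D4:**
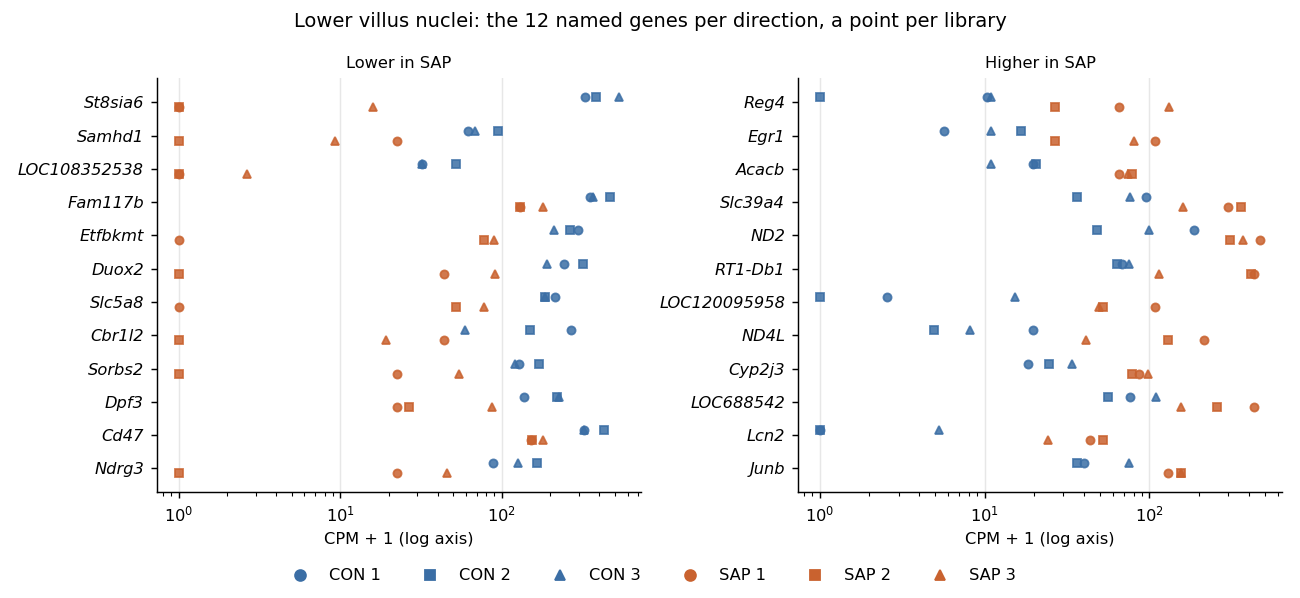
TMM-scaled CPM + 1 (x axis, log scale) of the 12 named genes per direction in lower villus nuclei, with a point for each of the 3 CON (blue) and 3 SAP (orange) libraries. St8sia6 is the gene that passed the test (325 to 532 CPM in CON, 0 to 15.0 CPM in SAP); the other 23 differ without overlap and did not pass.

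By the median log2 fold change of their tested genes, the immune presentation, stress and lipid lists lay above the median of all genes. The crypt and division lists lay below it. No list was tested as a whole, and the sums of the class II, class I and lipid lists overlapped between the groups. For class I, CON 1 was at 4811 CPM and SAP 3 at 3809, and for lipid genes CON 3 at 2748.5 and SAP 3 at 2502.6 (unscaled). Over all 7816 genes the median log2 fold change was -0.07, and 3377 genes were above 0. All 8 tested MHC class II genes were above 0 (median 0.75, 0 called). The summed level of all 11 genes of the list, unscaled, was 1254, 476 and 890.2 CPM in CON and 2112, 2658 and 1161 CPM in SAP, with Cd74, the invariant chain, the most abundant. Of 25 MHC class I genes, 16 were above 0 (median 0.26, 0 called), with RT1-CE5 at 144, 231 and 321 CPM in CON and 919, 1357 and 351 CPM in SAP and RT1-A1 at 23.5 to 69.7 CPM and 78.2 to 384 CPM. Macrophage and B cell lists, whose cells also carry class II genes, summed to 123, 83.1 and 82.0 and to 39.8, 49.1 and 186 CPM in CON, and to 18.4, 26.1 and 131 and to 36.7, 0 and 471 CPM in SAP. In SAP 1 and SAP 2 these sums rest on 2 UMIs or fewer, and the part of such cells in the class II values was not tested. Most of these list directions were not particular to members. Mid-villus and crypt nuclei had medians of 1.41 and 1.07 for class II and 0.25 and 0.02 for class I. For stress they were 0.63 and 0.67, for lipid 0.67 and 0.58 and for cycling genes -1.19 and -0.62. Those of the crypt list were -0.70 and 0.31, and crypt nuclei were chosen by its genes.

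Of 11 immediate early and stress genes, 9 were above 0 (median 0.77, 0 called), and the summed level of all 22 genes of the list, unscaled, did not overlap: 504, 468 and 602 CPM in CON against 973, 990.3 and 944 CPM in SAP. The sum of this list was also higher in SAP without overlap in mid-villus, tip and crypt nuclei. Of 9 glucocorticoid and fasting genes, 7 were above 0 (median 0.52, 0 called). Fkbp5, a textbook target of the glucocorticoid receptor, was at 153, 54.8 and 142 CPM in CON and 256, 359 and 286 CPM in SAP, with no overlap. Cpt1a, the gate of mitochondrial fatty acid oxidation, was at 192, 211 and 240.3 CPM in CON and 385, 307 and 409 CPM in SAP, and 12 of 15 genes of fatty acid oxidation were above 0 (median 0.41, 0 called), among them Acaa2, a thiolase, at 43.0 to 79.7 CPM and 76.8 to 171 CPM. Of 22 lipid genes, 18 were above 0 (median 0.55, 0 called). Fabp1, the liver type fatty acid binding protein, was at 81.3, 11.7 and 125 CPM in CON and 214, 589 and 349 CPM in SAP, and Creb3l3, a transcription factor of lipid metabolism, at 3.13, 7.83 and 25.6 CPM and 192, 256 and 53.3 CPM.

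All 7 tested crypt genes were below 0 (median -0.53, 0 called) and so were 10 of 11 cycling genes (median -0.46, 0 called). At least 3 crypt genes were held by 41.8, 19.0 and 12.3% of members in CON and 4, 5.56 and 21.6% in SAP, and at least 3 cycling genes by 51.5, 30.6 and 31.2% and 16, 5.56 and 39.6%. The part of these nuclei in the values was not tested. Lgr5 was at 42.2, 97.8 and 59.7 CPM in CON and 0, 0 and 30.0 CPM in SAP. Cenpf, a centromere protein of dividing cells, was at 205, 133 and 125 CPM in CON and 85.5, 51.2 and 78.2 CPM in SAP, and Tpx2, a spindle factor, at 128 to 180.0 CPM and 25.6 to 107 CPM. Myb, a transcription factor of crypt progenitors, was at 317, 423 and 279 CPM in CON and 214, 51.2 and 230 CPM in SAP, and Rnf43, which removes Wnt receptors from the cell surface, at 730, 1013 and 712 CPM and 620, 282 and 509 CPM. Of 15 BMP, Wnt and Notch genes, 11 were below 0 (median -0.28, 0 called). Of the 4 above 0, Hes1, a Notch target, was at 22.7 to 40.6 CPM in CON and 42.7 to 154 CPM in SAP.

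The detoxifying lists, from which several rule genes come, showed no common direction. Their counts and medians, like those of the other lists compared between SAP and CON, include any rule genes that a list holds. These genes selected the members, so the list values are a description only. Of 15 phase 1 genes 8 were above 0 (median 0.38, 0 called), and Ces1e, a carboxylesterase, was at 117, 141 and 89.6 CPM in CON and 299, 205 and 156 CPM in SAP. Of 15 phase 2 genes 7 were above 0 (median -0.01, 0 called), with the glutathione transferase Gstp1 at 130, 35.2 and 41.2 CPM in CON and 278, 76.8 and 198 CPM in SAP. Of 13 NRF2 targets 7 were above 0 (median 0.07), while Nqo1, the quinone reductase of that list, was at 42.2, 27.4 and 62.6 CPM in CON and 0, 0 and 9.98 CPM in SAP. Without overlap, 4 of the 13 were lower and 0 higher in SAP, against 9.19% and 3.7% of all genes. Of 21 amino acid and peptide genes 13 were above 0 (median 0.07, 0 called), with 1 higher and 2 lower in SAP without overlap, a share near that of all genes. The lower ones were amino acid carriers: Slc7a8 was at 125, 215 and 148 CPM and 85.5, 0 and 59.9 CPM, and Slc1a1, the epithelial glutamate transporter, at 129 to 163 CPM and 51.2 to 128 CPM. Of 10 interferon genes 7 were below 0 (median -0.55). Myh11 and Actg2 of smooth muscle were at 96.9, 113 and 240.3 CPM and 37.5, 47.0 and 92.4 CPM in CON and 21.4, 0 and 84.9 CPM and 42.7, 0 and 23.3 CPM in SAP. The smooth muscle list summed to 180, 242 and 462 CPM in CON and 91.8, 26.1 and 174 CPM in SAP, and its part in the group difference was not tested. The neutrophil list (Cxcr2 at 0, S100a9 the most abundant) summed to 11.5, 0 and 5.47 CPM in CON and 110.2, 26.1 and 36.4 CPM in SAP, and the enteroendocrine gene Chga was at 7.82 to 23.5 CPM and 25.6 to 64.1 CPM.

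Other genes with a low unadjusted p on their lists were Pla2g6, a phospholipase A2, at 50.0 to 72.5 CPM in CON and 0 to 30.0 CPM in SAP, Esrrg, an oestrogen-related receptor, at 141 to 301 CPM and 42.7 to 154 CPM, Marveld3, a tight junction protein, at 78.3 to 100.1 CPM and 21.4 to 48.3 CPM, Ldha, lactate dehydrogenase, at 39.1 to 120.4 CPM and 118 to 214 CPM, and Plaur, the urokinase receptor, at 65.7 to 121 CPM and 107 to 205 CPM. None of these passed.

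The 16 genes taken from the text of the study were all tested in members, and 0 were called. The remaining ones were Olfm4 (log2 fold change -0.44), Ly6al (1.22), Pla2g2a (-1.30), Apoa1 (2.30), Defa24 (0.55), Dmbt1 (-0.60), Anpep (0.42), Muc2 (-0.27), Smoc2 (-0.39), Hmga2 (-0.40), Fn1 (-0.52), Itga3 (0.38), Itgb1 (-0.02) and Cd74 (0.90). Apart from Hmga2, these values moved by over 1.5 times with single libraries: Apoa1 was at 4.53 without CON 3 and 1.14 without SAP 2, Ly6al at 1.87 without CON 1 and 0.65 without SAP 1, Cd74 at 1.51 without CON 1 and 0.49 without CON 2, and Dmbt1 at -0.13 without CON 1 and -0.21 without SAP 2. Without SAP 3, Olfm4 was at -0.99, Smoc2 at -1.04, Itga3 at 0.74 and Fn1 at 0.26. Pla2g2a, Defa24, Anpep, Muc2 and Itgb1 also turned sign when 1 library was left out. Of the 14, Olfm4 and Hmga2 did not overlap between groups and were lower in SAP. With Lgr5 and Myb, 4 of all 16 genes were lower and 0 higher without overlap, against 9.19% and 3.7% of all genes. Hmga2, a chromatin protein of progenitors, was at 252, 301 and 269 CPM in CON and 214, 205 and 205 CPM in SAP. Defa24, a Paneth defensin, was at 22226, 1119 and 1089 CPM in CON and 32305, 3099 and 521 CPM in SAP.

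Whether the SAP effect in members differed from that in mid-villus or crypt nuclei was tested with the rat as a term, and levels are unscaled CPM here. It differed from that in mid-villus nuclei for 30 of 10856 genes (0.276%), 23 with a more positive and 7 with a more negative effect in members, and from that in crypt nuclei for 27 of 10812 genes (0.25%), 19 and 8 (edgeR adjusted p under 0.05). Of the 23, 13 were genes of ribosomal proteins, and of the 19, 10. The counts moved with single libraries: against mid-villus nuclei they were 7, 16 and 12 without CON 1, 2 and 3 and 13 without SAP 3, and against crypt nuclei 3, 10 and 7 without CON 1, 2 and 3 and 70, 70 and 3 without SAP 1, 2 and 3. Over all 83 ribosomal protein genes tested against mid-villus nuclei, 82 lay above 0 with a median of 0.66, beside -0.05 over all genes. Rpl11 was at 344, 34.0 and 39.7 CPM in members of CON and 588, 156 and 258 CPM in members of SAP, against 305, 45.8 and 63.2 CPM and 332, 97.3 and 94.1 CPM in mid-villus nuclei (difference 1.32 ± 0.24 SE on the log2 scale). The groups of members overlapped, since CON 1 was high, and within SAP each rat had more in members than in mid-villus nuclei. Eif5a, a translation factor, differed against both classes (1.38 and 1.35), as did Rps3, Rpl28, C4a and Col3a1.

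Fabp6, the ileal bile acid binding protein, was at 2207, 408 and 681 CPM in members of CON and 1286, 1381 and 1323 CPM in members of SAP, against 4926, 749 and 1501 CPM and 1321, 1183 and 1499 CPM in mid-villus nuclei (difference 1.00 ± 0.22 SE). In CON each rat had less Fabp6 in members than in mid-villus nuclei, and in SAP the classes were close. Mlxipl, the carbohydrate response factor ChREBP, went the other way (difference -1.03 ± 0.22 SE): it was at 210.4, 381 and 500.5 CPM in members of CON, above 140, 322 and 393 CPM in mid-villus nuclei of the same rats, and at 331, 599 and 303 CPM in members of SAP, below 401, 806 and 512 CPM. Spdef, a transcription factor of secretory cells, differed from crypt nuclei (1.11 ± 0.23 SE), at 153, 113 and 118 CPM in members of CON and 73.5, 208 and 304 CPM in members of SAP, so that the groups overlapped.

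The more negative differences against mid-villus nuclei were those of Slit3, Mlxipl, C4a, Ror1, Osbpl6, LOC120095071 and Col3a1, and against crypt nuclei those of C4a, Col3a1, Srgn, Timp2, Cald1, Samhd1, Dlc1 and Cacna1c. Those against mid-villus nuclei all lost their call without CON 1 and also without SAP 3. C4a, a complement component, was at 160.4, 7.55 and 28.7 CPM in members of CON and 0, 26.1 and 24.8 CPM in members of SAP. Nuclei with an immune or stromal list were 25.4, 4.13 and 12.3% of members in CON and 8, 0 and 29.7% in SAP. Without such nuclei in either class, 0 of 10304 genes differed from mid-villus and 1 of 9496 from crypt nuclei (edgeR adjusted p under 0.05), with 494 and 510.0 at an unadjusted p under 0.05. The gene that remained was Spdef (1.43), whose difference with all nuclei was 0.27 without SAP 3. Of the genes called with all nuclei, 29 of 30 against mid-villus and 25 of 26 with a value against crypt nuclei had the same sign without these nuclei. The genes were chosen by their calls, and 557 of the 662 members are in both fits, so this sharing of signs is no separate evidence. Mlxipl kept its size (-1.05, adjusted p = 0.258), and Rpl11 came to 0.26.

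**Figure D5:**
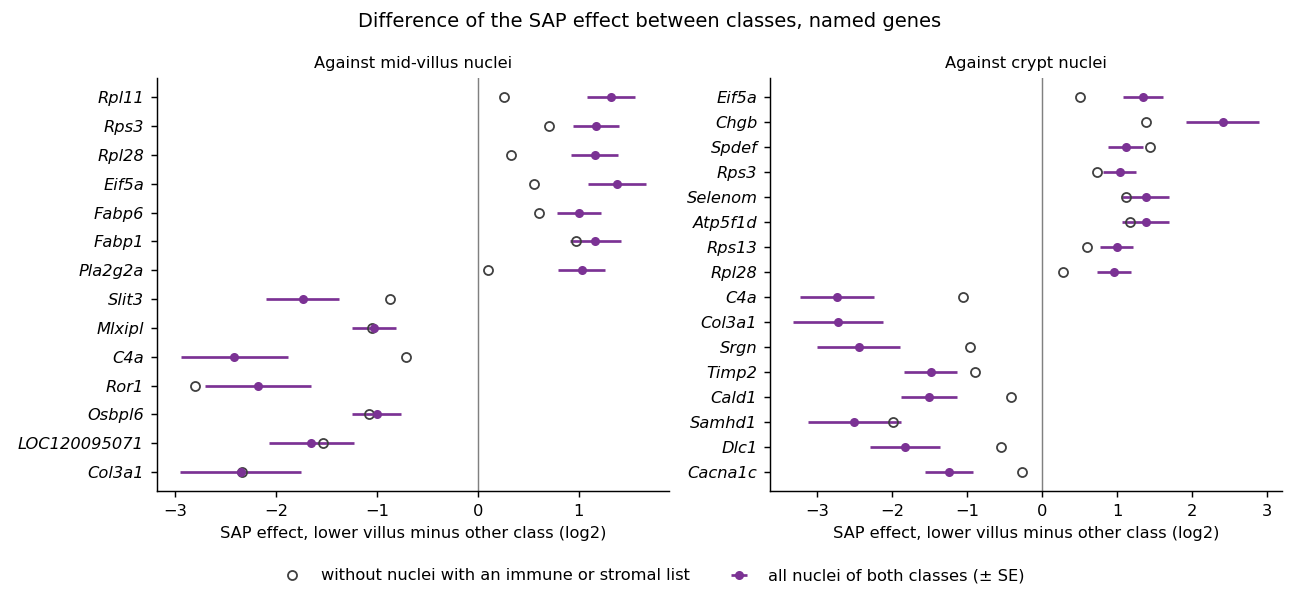
Difference of the SAP effect (SAP against CON, log2) between lower villus nuclei and mid-villus (left) or crypt (right) nuclei for the named genes; filled points with SE use all nuclei of both classes and open points leave out nuclei with an immune or stromal list. Rpl11 moves from 1.32 to 0.26 and Mlxipl is at -1.03 and -1.05.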

How the data were processed

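Libraries of nuclei were made with a DNBelab C kit, with mRatBN7.2 and Seurat 4.3.0 named in the submitters' processing notes; the deposited tables hold raw UMI counts by gene and barcode, which the authors made with dnbc4tools. Nuclei were kept at 1200 or more UMIs, 500 or more genes and at most 5% mitochondrial UMIs (13 genes). CON 2 and SAP 1 list barcodes under 1000 UMIs. Barcode names are numbered labels, so names shared by pairs of libraries (701 to 7479) were not read as shared cells. No doublets were called. Depth was 5549260 to 28771508 UMIs in passing nuclei.

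UMIs were summed per library over members and tested with the quasi-likelihood test of edgeR 4.0.16 (robust, TMM scaling, genes kept by filterByExpr), called at an adjusted p under 0.05 and a log2 fold change of at least 0.5. Shares were tested with limma 3.58.1 on logits with an offset of 0.5 nuclei, under R 4.3.3, and single values with an exact permutation test. Ratios of levels used a pseudocount of 5 CPM. Scripts were tested on simulated data. DESeq2 1.42.0 and other thresholds, thinning, scalings, filters and left-out libraries were alternatives. Intervals and floors cover counting error only.

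Members and gene lists were chosen with earlier results of these data known. Named were the 24 rule genes; called genes, filled up to 12 per direction with genes without overlap at 20 CPM or more; up to 2 genes per direction on each list; up to 12 per direction for levels and 8 for interactions; and the study's own named genes. Libraries of a group are separate rats. Some named genes are not reported here.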

Additional observations from a re-analysis of the deposited data

Results flagged for a closer look

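The genes below had a different SAP effect in lower villus nuclei than in another class of the same rats by the interaction test (edgeR adjusted p under 0.05), given as differences of log2 fold changes. Against mid-villus nuclei, translation genes had the more positive effect in members: Rpl11 by 1.32, Rps3 by 1.17, Rpl28 by 1.16 and Eif5a by 1.38. The same held for the lipid and bile acid binding proteins Fabp6 (1.00) and Fabp1 (1.16) and for the secreted phospholipase Pla2g2a (1.03). More negative effects were those of Slit3 (-1.74), Mlxipl (-1.03), C4a (-2.41), Ror1 (-2.18), Osbpl6 (-1.003), LOC120095071 (-1.65) and Col3a1 (-2.35). Without nuclei with an immune or stromal list in either class, 0 genes were called against mid-villus nuclei, and Rpl11 came to 0.26, Rps3 to 0.71, Rpl28 to 0.33, Eif5a to 0.55, Pla2g2a to 0.10, Fabp6 to 0.60, Slit3 to -0.87 and C4a to -0.72. Fabp1 (0.97), Mlxipl (-1.05), Osbpl6 (-1.08), LOC120095071 (-1.54), Col3a1 (-2.33) and Ror1 (-2.80) stayed near or above their size with all nuclei, though not called. Some of them rest on few molecules. With all nuclei, members of SAP 1, 2 and 3 gave 0, 0 and 8 UMIs of Col3a1 and 1, 0 and 12 of Ror1. LOC120095071 gave 0, 0 and 21 UMIs there. Without SAP 3, Rpl11 was at 0.87, Eif5a at 0.72, C4a at -1.60, Ror1 at -0.95, Slit3 at -9.31, LOC120095071 at -9.92 and Col3a1 at -7.55. Slit3, LOC120095071 and Col3a1 had 0 UMIs in members of SAP 1 and SAP 2, so their values without SAP 3 rest on zeros. Without CON 1, C4a was at -0.85 and Slit3 at -1.02. Against mid-villus nuclei, 0 genes were called with a more negative effect without CON 1, and likewise without SAP 3.

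Against crypt nuclei the differences were 1.35 for Eif5a, 2.41 for the enteroendocrine granule protein Chgb, 1.11 for Spdef, 1.03 for Rps3, 1.38 for Selenom, 1.38 for Atp5f1d, 0.99 for Rps13 and 0.96 for Rpl28. They were -2.74 for C4a, -2.72 for Col3a1, -2.45 for Srgn, -1.49 for Timp2, -1.51 for Cald1, -2.50 for Samhd1, -1.83 for Dlc1 and -1.24 for Cacna1c. Without nuclei with an immune or stromal list, Spdef was the 1 gene called (1.43), Selenom was at 1.12, Atp5f1d at 1.17, Samhd1 at -1.98, Chgb at 1.38, Rps3 at 0.73, Rps13 at 0.60, Eif5a at 0.51, Rpl28 at 0.28, C4a at -1.05, Srgn at -0.96, Timp2 at -0.90, Cald1 at -0.41, Dlc1 at -0.55 and Cacna1c at -0.27. Each of the genes named against crypt nuclei lost its call without SAP 3, where Eif5a was at 0.71, Spdef at 0.27, Rps3 at 0.55, Selenom at 0.49, Atp5f1d at 0.17, Rps13 at 0.27, Rpl28 at 0.37, Col3a1 at -7.51, Samhd1 at -1.16 and Cacna1c at -2.69. Col3a1 had 0 UMIs in members of SAP 1 and SAP 2, so its value without SAP 3 rests on zeros. Without CON 1, C4a was at -1.22 and Timp2 at -0.90, and without CON 3 Cacna1c was at -0.13.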

How the results depend on the processing

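The alternatives changed how many genes were called more than they changed St8sia6. Beside 1 gene, 5 were called at a mitochondrial limit of 1%, 3 after thinning and with DESeq2, 2 each without Bche, Gsta3 or Serhl2 in the rule and without CON 1 and SAP 1, 13 with library totals alone and 35 with no filter. Leaving out 1 library gave 1 to 122. The labels link same-numbered libraries by the number alone. Their correlations of deviations were 0.163, 0.0973 and 0.0499, against -0.148 to 0.0807 for the other pairs. For each SAP library the same-numbered CON library had the highest value. Whether same-numbered libraries were handled together is not given by the labels and was not tested. The replicate block gave 7 calls, St8sia6 and 6 mitochondrial genes. Differences against mid-villus nuclei numbered 0 without nuclei with an immune or stromal list, 12 with library totals, 15 without CON 1 and SAP 1, and 8 with tip nuclei in place of mid-villus nuclei (7 to 42 leaving out 1 library); against crypt nuclei they numbered 46 with RLE factors, 1 without nuclei with an immune or stromal list and 4 with library totals (3 to 70). The share kept its direction and stayed short of the threshold throughout. The difference in median UMIs was -560.8 to 142 and in median genes -408 to 37.5 leaving out 1 library, with reversals at 142 and at 25.0 and 37.5.

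Log2 fold changes that turned sign were those of Olfm4 (0.051) and Smoc2 (0.20) without Hnmt in the rule, and of Cd74 (-0.19 with 4 genes, -0.0058 at 1% mitochondrial), Gstp1 (-0.20) and Ldha (-0.044), both at 1%. Defa24 was at -1.15 with 2 genes and with depth class, -0.18 with 4, -0.80 without nuclei with an immune or stromal list, -2.48 at 1%, -0.45 with no upper limit, -0.23 thinned, and -0.40 and -0.67 without Ces2j and Serhl2. Muc2 was at 0.59 thinned, 0.020 with the block and 0.83 without CON 1 and SAP 1, where Anpep was at -0.0068. Itgb1 was at 0.0058 at 1%, 0.19 with no upper limit, 0.24 thinned, 0.0019 without the 5% deepest nuclei, 0.0015 without Bche, 0.12, 0.15 and 0.036 without Cyp4f40, Hnmt and Serhl2, 0.32 without CON 1 and SAP 1, 0.040 with the block, 0.028 with RLE and 0.081 with library totals. Leaving out 1 library took Pla2g2a to between -3.70 and 1.02, Defa24 -2.35 and 3.51, Anpep -0.11 and 1.35, Muc2 -0.68 and 0.68, Fn1 -1.01 and 0.26 and Itgb1 -0.24 and 0.37. The cause was not tested. The planned set without nuclei holding any other type's list left no members in CON 1 and SAP 1 and could not be fitted. SAP 1 and SAP 2, with 25 and 18 members, set the depth limit. Leaving out CON 1 and SAP 1 together, and nuclei with an immune or stromal list, were choices made after seeing the data.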
